A study of Mus musculus with 13 samples.

Results

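The trypsin-like serine protease genes described here are the 93 genes of 25965 in a table of mouse testis RNA whose symbols begin with Prss, Tmprss, Klk or Htra and a digit, together with Ovch2, Plat, Plau, St14, Hpn and Corin. Libraries were made from the whole testis of mice aged 15 weeks with the tunica albuginea removed, so that germ cells and somatic cells were sequenced together. The 13 libraries were labelled wild type (WT, n = 3), heterozygous for Wfdc15a (Het, n = 4) or Wfdc15a knockout (KO, n = 6), and the series pools WT and Het as its control group (n = 7) to ask what Wfdc15a does in spermatogenesis. The series counts mice, so each library was taken as 1 mouse. The labels give no strain, treatment or kind of allele. Their titles carry a number, 1 or 2, of unstated meaning: it is 1 for Het replicate 1 and KO replicates 1 to 3, and 2 for all other libraries. The members were split by their known sites of expression into 17 germ-cell genes, 59 somatic genes and 17 genes placed on neither side.

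Most of these enzymes share the catalytic fold of trypsin and many cut proteins after basic residues, although not all members do, and several relatives have lost active-site residues and act without cutting. In the testis, spermatocytes and spermatids make a set of them that is found in few other tissues, many bound to the sperm membrane or stored in the acrosome, where they take part in sperm maturation, passage through the female tract and fertilization. Somatic testis cells make others: Leydig cells make tissue kallikreins, and Sertoli cells make plasminogen activator. Wfdc15a belongs to the WAP (whey acidic protein) gene group, whose best known products block serine proteases outside the cell.

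Levels below are in RPM, the reads of a gene divided by the library's depth in units of M reads. That depth was 4.51 to 11.1 M reads per library, so that 1 read was worth 0.0899 to 0.222 RPM. Where no read was seen, a level of up to 0.270 to 0.665 RPM (3 reads) remains possible, counting error alone. The 7 controls held 65.5 ± 12.5 RPM of Wfdc15a (mean ± SD), and the 6 KO libraries 44.6 ± 21.8 RPM. Its level was 28.1 ± 7.60 RPM (n = 3) in KO libraries of number 1 and 61.2 ± 17.7 RPM (n = 3) in those of number 2, which overlap the controls, so that the targeted gene does not separate every KO library from the controls (log2 difference -0.66, two-sided exact permutation p = 0.0338). "KO" below therefore refers to the label. Markers of somatic cells and of late germ cells also differed between the groups: 8 of 9 Leydig, 6 of 10 Sertoli and 8 of 9 macrophage markers rose, and 8 of 8 markers of elongating spermatids fell.

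Of the 93 members, 52 had a mean of at least 1 RPM and were tested, with limma on log2(RPM + 1) and p-values adjusted over all 16235 genes that passed that limit. All 17 germ-cell genes, 26 of the 59 somatic genes and 9 of the 17 others passed. The 41 untested members include 10 without a read in any library and 31 with few reads, of which 20 had reads in 3 or more libraries. Among those 20 were St14 (matriptase, mean 0.935 RPM), Plau (urokinase, 0.535 RPM), Htra4 (0.407 RPM), Klk15 (0.569 RPM), Klk1b11 (0.636 RPM) and 5 genes of the Tmprss11 family (0.0944 to 0.916 RPM). Prss16, a thymus protease, held 4.74 RPM in KO replicate 3 and at most 0.803 RPM in any other library. None of the 12 kallikrein genes outside the Klk1 and Klk1b group was tested, and 4 of them had no reads.

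Per kilobase of exon, the 7 most abundant members were germ-cell genes. Prss39 led with a mean of 288 RPM per kilobase over the 13 libraries, followed by Prss37 (159), Prss58 (110), Prss52 (84.2), Prss46 (71.5), Prss45 (65.3) and Prss55 (63.6). The most abundant somatic members were kallikreins, at 62.2 RPM per kilobase for Klk1b27, 50.1 for Klk1b21, 46.0 for Klk1b8 and 45.8 for Klk1b24. Below these came Htra1 at 14.6, Prss56 at 14.1, Klk1b7-ps at 11.2 and Prss35 at 9.12 RPM per kilobase. Plat stood at 4.90.

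The first comparison sets the 6 libraries labelled KO against the 7 controls. Germ-cell proteases fell or did not pass the test, whereas somatic proteases moved both ways. Of 52 tested members 6 rose and 9 fell, against 18.4% of all tested genes called higher and 6.18% called lower (24.6% in all). The 7 germ-cell genes that fell were Prss58, Prss51, Prss55, Prss52, Prss39, Prss37 and Prss40. No germ-cell gene rose, with 0 higher also at an unadjusted p under 0.05 and 0 with limma-voom on the recovered reads. Of the 26 tested somatic genes, Htra1, Prss35, Plat, Tmprss6, Prss12 and Htra3 rose, and the kallikrein Klk1b8 and the pseudogene Klk1b7-ps fell. The median log2 difference was -0.14 over the germ-cell genes and 0.16 over the somatic genes, beside 0.16 over all tested genes. That median became 0.02 when libraries were scaled by median-of-ratios size factors, which turned the split of all genes to 10.5% higher and 10.6% lower and that of the members to 4 higher and 12 lower. The germ-cell genes stayed at 7 lower and 0 higher under that scaling.

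**Figure D1:**
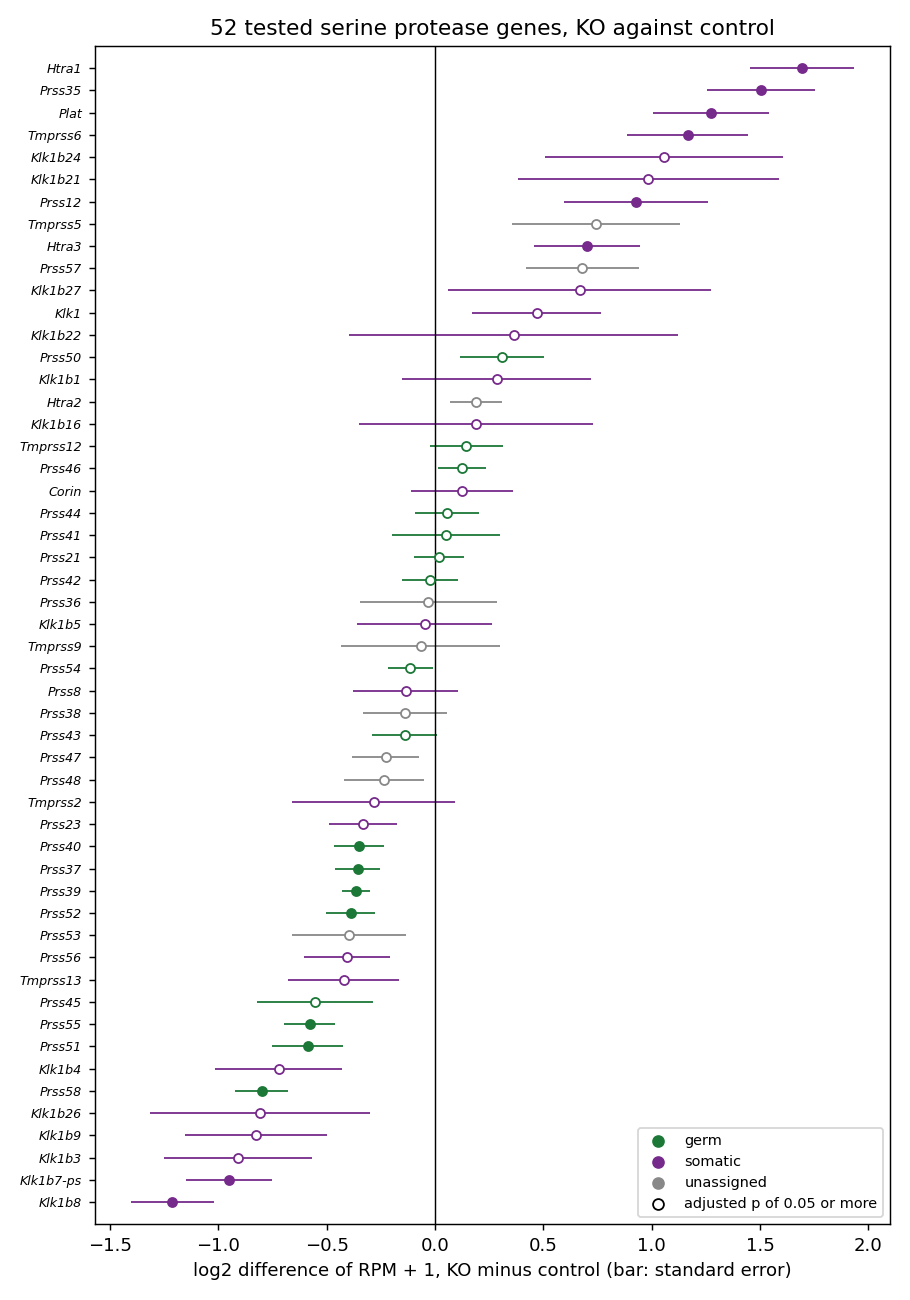
Log2 difference of RPM + 1 between KO (n = 6) and control (n = 7) for each of the 52 tested members, with the standard error as a bar. Filled points passed an adjusted p of 0.05: 6 somatic genes lie to the right of 0, and 7 germ-cell genes with 2 kallikrein loci lie to the left.

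Prss39 and Prss40 code for testicular serine proteases of the sperm acrosome, also called TESP1 and TESP2. Prss39 (chr1:34498430-34503062, plus strand, build mm10) measured 426, 413 and 406 RPM in WT replicates 1 to 3 and 425, 437, 452 and 435 RPM in Het replicates 1 to 4. It measured 317, 349 and 304 RPM in KO replicates 1 to 3 and 343, 327 and 355 RPM in KO replicates 4 to 6. Every KO library lay below every control library, and both title numbers of KO lay at about the same level. The log2 difference was -0.36 ± 0.06 (standard error, adjusted p = 0.000320). Prss40 (chr1:34543975-34560943, minus strand, mm10) measured 63.3 to 73.8 RPM in the controls with a median of 68.6, and 35.7 to 61.8 RPM in KO with a median of 57.4. Its groups did not overlap either, and KO replicate 6 at 35.7 RPM stood apart from the other KO libraries (53.7 to 61.8 RPM). Its log2 difference was -0.35 ± 0.12 (adjusted p = 0.0318), a call that ended without any 1 of WT replicate 1, Het replicate 1, Het replicate 2 or KO replicate 6 (adjusted p up to 0.0628). It was not called in KO of number 1 (adjusted p = 0.278). The exons of Prss40 overlap those of Cfc1, and whether counting used the strand is not stated.

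Prss39 and Prss40 lie in opposite orientation on chromosome 1, within 62.5 kb, and both fell. The 250 bases before their transcription starts are shown because these relatives lie close together and moved the same way, and capitals mark the longest run of bases that both hold (RefSeq, GRCm38.p6, 5′ to 3′ on the gene's strand).
Prss39, chr1:34498162-34498411, plus strand: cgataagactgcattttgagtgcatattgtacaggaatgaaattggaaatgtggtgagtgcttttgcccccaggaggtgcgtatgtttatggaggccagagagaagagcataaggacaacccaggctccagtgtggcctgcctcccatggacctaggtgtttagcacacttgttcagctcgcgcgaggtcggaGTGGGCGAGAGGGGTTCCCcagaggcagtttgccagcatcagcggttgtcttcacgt
Prss40, chr1:34560944-34561193, minus strand: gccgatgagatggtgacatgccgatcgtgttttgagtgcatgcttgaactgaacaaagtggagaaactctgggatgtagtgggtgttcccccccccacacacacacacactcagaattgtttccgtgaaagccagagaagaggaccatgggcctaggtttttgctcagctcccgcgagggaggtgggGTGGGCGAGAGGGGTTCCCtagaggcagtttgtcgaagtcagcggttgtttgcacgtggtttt
The run is 19 bases long, stands in 2 of 32817 windows of the same length before RefSeq starts on either strand, and was chosen by comparing the 2 sequences. The windows were 70.1% identical over 221 aligned bases. Their transcripts share almost no longer stretch: 0.0752% of the 50-base words of Prss39 occur in another transcript, that of Prss40.

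Prss37 is an acrosomal relative without protease activity that is needed for the maturation of the sperm surface protein ADAM3, and Prss58 is a further relative on chromosome 6. Prss37 (chr6:40514824-40519508, minus strand, mm10) measured 164 to 240.0 RPM in the controls with a median of 209, and 122 to 172 RPM in KO with a median of 162. All 6 KO libraries lay below the control mean, but the ranges overlapped (log2 difference -0.36 ± 0.10, adjusted p = 0.0144). Prss37 was not called in KO of number 1 (adjusted p = 0.140) or against WT alone (adjusted p = 0.260). Prss58 (chr6:40895262-40900387, minus strand) measured 133, 143 and 118 RPM in WT, 149, 122, 136 and 133 RPM in Het, 105, 98.7 and 64.4 RPM in KO of number 1 and 73.3, 56.6 and 70.1 RPM in KO of number 2. Its groups did not overlap, and the fall by 0.80 ± 0.12 on the log2 scale (adjusted p = 0.000107) was the largest among the germ-cell genes.

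Prss55 (chr14:64075438-64090162, minus strand), Prss51 (chr14:64086234-64097670, plus strand) and Prss52 (chr14:64104286-64113755, plus strand) are neighbours within 38.3 kb, and all 3 fell in the pooled comparison. Prss55 codes for a sperm membrane protease needed for passage into the oviduct. It measured 94.6 to 119 RPM in the controls with a median of 105, and 51.6 to 91.9 RPM in KO with a median of 65.3 (log2 difference -0.58 ± 0.12, adjusted p = 0.00133). The groups did not overlap. Prss51 measured 28.3 to 39.5 RPM in the controls and 15.7 to 37.7 RPM in KO, where only KO replicate 2 (37.7 RPM) stood above the control mean (log2 difference -0.59 ± 0.16, adjusted p = 0.0121). Prss52 measured 83.0 to 108 RPM in the controls and 51.4 to 89.0 RPM in KO (log2 difference -0.39 ± 0.11, adjusted p = 0.0158). Its overlap came from Het replicate 2, the lowest control at 83.0 RPM. The gene bodies of Prss51 and Prss55 overlap on opposite strands. With WT alone as the control none of the 3 was called (adjusted p = 0.0607 for Prss55, 0.139 for Prss51 and 0.101 for Prss52), a fit with 4 fewer libraries. In KO of number 1, Prss51 (adjusted p = 0.191) and Prss52 (adjusted p = 0.208) were not called.

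A further group of 6 germ-cell genes lies within 66.4 kb of chromosome 9. In KO against control 0 of the 6 were called with limma, 0 with limma-voom as well, and 0 had an unadjusted p under 0.05. In KO of number 1 alone 0 were called by limma, with Prss45 at -0.81 (unadjusted p = 0.0203) and Prss50 at 0.52 (unadjusted p = 0.0316) on the log2 scale. There 1 of the 6 was called under median-of-ratios scaling and 2 under quantile normalization. Prss42, Prss43 and Prss44 are proteases first described in spermatocytes. Prss42 measured 45.8 to 70.8 RPM in the controls with a median of 61.6, and 49.2 to 81.9 RPM in KO with a median of 56.5. Prss43 measured 30.5 to 41.3 RPM in the controls and 22.8 to 45.1 RPM in KO, and Prss44 30.4 to 49.0 and 31.7 to 59.3 RPM. The highest KO value of both Prss42 and Prss44 was that of KO replicate 6, which was lowest in Prss40 and Prss52. Prss46 measured 76.8 to 114 RPM in the controls with a median of 86.6, and 81.5 to 116 RPM in KO with a median of 102. Prss50, a relative with threonine in place of the active-site serine, measured 19.8 to 50.9 RPM in the controls with a median of 25.2, and 26.3 to 49.6 RPM in KO with a median of 33.9. In all 5 the groups overlapped, and the log2 differences lay between -0.14 and 0.31. Prss45 was spread most among the controls: 193 RPM in WT replicate 1 and 161 RPM in Het replicate 2, against 55.6 to 92.3 RPM in the other 5 controls and 34.7 to 92.2 RPM in KO. Its log2 difference of -0.56 ± 0.27 did not pass (adjusted p = 0.137). Whether the chromosome 9 genes differ from the chromosome 14 genes in their response was not tested.

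The remaining germ-cell genes did not pass the test. Prss21, the membrane-anchored testisin of spermatids, measured 71.5 to 96.7 RPM in the controls with a median of 73.8, and 61.2 to 108 RPM in KO with a median of 78.4. Prss54 measured 81.9 to 109 RPM in the controls and 67.1 to 102 RPM in KO. Tmprss12, a transmembrane protease needed for sperm migration, measured 24.3 to 39.0 and 23.2 to 56.3 RPM, and Prss41, the lowest of the germ-cell genes, 3.71 to 7.57 and 2.28 to 7.71 RPM. The log2 differences of these 4 genes lay between -0.11 and 0.14.

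The summed level of the 17 germ-cell genes was 1566 to 1747 RPM in the controls and 1242 to 1403 RPM in KO, without overlap. Prss39 made up the largest single share of that sum. Beside it, the sum of 8 markers of elongating spermatids (protamines, transition proteins and others) was 10846 to 15682 RPM in the controls and 4502 to 7135 RPM in KO, and all 8 fell. Of 6 tested markers of round spermatids 1 fell, and of 6 of spermatocytes 1 fell. In bulk RNA, fewer cells of a type and less RNA per cell cannot be told apart, and the part of cell make-up in the lower protease levels was not tested.

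**Figure D2:**
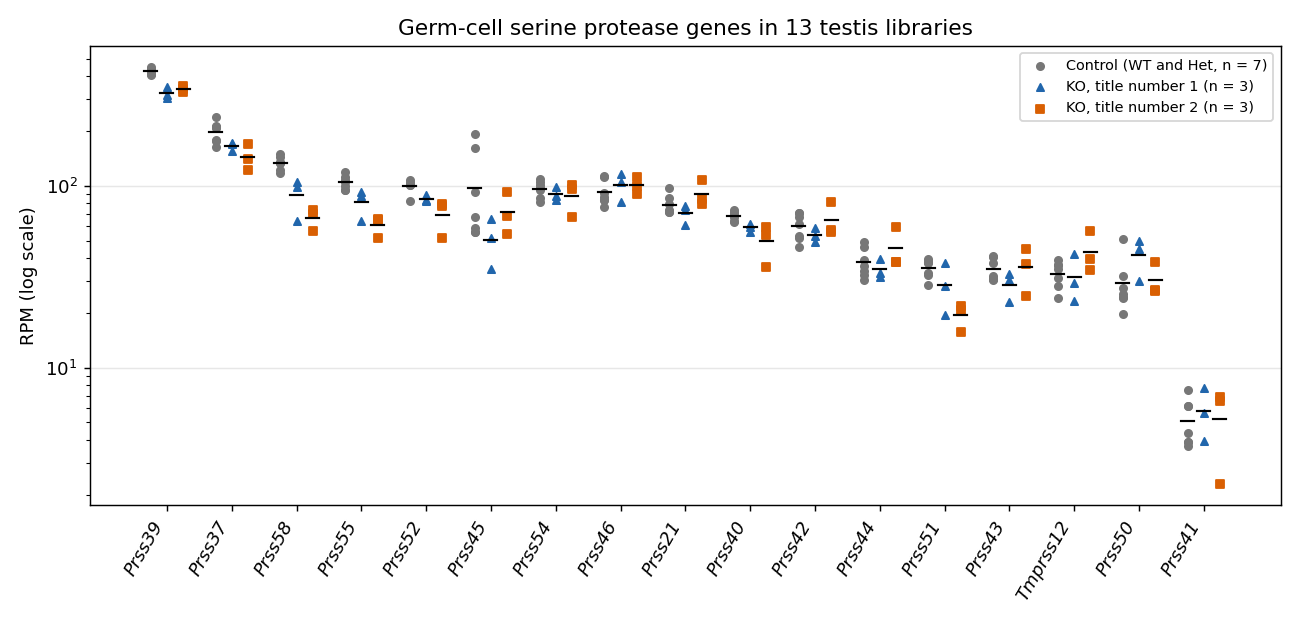
RPM (log scale) of the 17 germ-cell genes in each library, ordered by mean level, with a bar at each group mean. Grey circles are the 7 controls, blue triangles the 3 KO libraries of number 1 and orange squares the 3 of number 2; Prss39, Prss58, Prss55 and Prss40 show KO points below all control points, and Prss45 shows 2 high controls.

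Most genes whose products work with the sperm proteases did not pass the test. Of 17 tested genes for sperm zymogens and ADAM3 maturation, 0 rose and 2 fell, with a median log2 difference of -0.05. Of all tested genes 18.4% were called higher and 6.18% lower. Ace, the angiotensin-converting enzyme whose testis form sits on sperm, fell from 514 ± 50.1 to 357 ± 34.4 RPM (log2 difference -0.52 ± 0.08, adjusted p = 0.000102), and Adam3 fell from 1309 ± 102 to 1136 ± 48.8 RPM (-0.20 ± 0.06, adjusted p = 0.0241). Adam1a (adjusted p = 0.0667) and Calr3 (adjusted p = 0.161) were not called. Acr, the gene of acrosin, the main acrosomal trypsin-like protease, measured 262 ± 24.2 RPM in the controls and 249 ± 25.0 RPM in KO (log2 difference -0.07 ± 0.08, adjusted p = 0.566).

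Among somatic members, the secreted Htra1, which cuts matrix proteins, rose most. Htra1 (chr7:130936111-130985660, plus strand, mm10) measured 21.7, 41.6 and 31.2 RPM in WT, 12.5, 21.7, 11.4 and 11.6 RPM in Het, 61.7, 68.0 and 62.8 RPM in KO of number 1 and 66.0, 85.0 and 51.9 RPM in KO of number 2. Every KO library lay above every control library, at a like level in both numbers. The log2 difference was 1.70 ± 0.24 (adjusted p = 4.15e-05). Its relative Htra3 measured 13.8 to 42.0 RPM in the controls and 26.1 to 72.5 RPM in KO, with overlap (0.70 ± 0.25, adjusted p = 0.0415). The call of Htra3 was lost in 16 of 27 alternatives, 8 of them the omission of 1 library (adjusted p up to 0.108), and also when either KO number was compared alone. Htra2, a mitochondrial protease active in both germ and somatic cells, measured 31.1 to 43.0 RPM in the controls and 35.0 to 49.7 RPM in KO (log2 difference 0.19 ± 0.12, adjusted p = 0.257), and its exons overlap those of Loxl3 and Aup1.

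Prss35 codes for a secreted protease-like protein known from the ovary. Prss35 (chr9:86743633-86758272, plus strand, mm10) measured 13.6, 15.8 and 18.9 RPM in WT, 17.9, 13.5, 13.1 and 14.0 RPM in Het, 51.6, 81.8 and 74.8 RPM in KO of number 1 and 27.0, 46.6 and 19.7 RPM in KO of number 2. No KO library reached down to the controls, which held within a narrow range, and the 3 libraries of number 1 were the highest. The log2 difference from control was 1.50 ± 0.25 over all KO (adjusted p = 0.000195), 2.10 ± 0.22 for number 1 (adjusted p = 4.90e-06) and 0.91 ± 0.22 for number 2 (adjusted p = 0.00854). The difference of number 2 from number 1, -1.19 ± 0.26, did not pass (adjusted p = 0.0565). Its relative Prss23 measured 20.9 to 31.7 RPM in the controls and 14.2 to 29.7 RPM in KO (log2 difference -0.33 ± 0.16, adjusted p = 0.127), and was called lower under median-of-ratios scaling (-0.48, adjusted p = 0.0371).

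Plat codes for tissue plasminogen activator, which turns plasminogen into plasmin. Plat (chr8:22757744-22782847, plus strand, mm10) measured 23.7, 22.5 and 34.2 RPM in WT, 9.09, 16.4, 16.8 and 8.42 RPM in Het, 56.5, 40.3 and 61.3 RPM in KO of number 1 and 33.5, 50.1 and 24.8 RPM in KO of number 2. All KO libraries were above the control mean, but the highest WT library overlapped the lower KO libraries of number 2 (log2 difference 1.28 ± 0.27, adjusted p = 0.00159). The call was not made within title number 2 (adjusted p = 0.0948). The other activator, Plau, had too few reads to be tested. Of all tested genes 18.4% were called higher, and their median log2 difference was 0.16. Of the 6 tested partners of the plasminogen activator system 5 rose, with a median log2 difference of 0.99. They include Serpina5, an inhibitor of these activators, from 154 ± 48.6 to 366 ± 118 RPM (1.23 ± 0.20, adjusted p = 0.000135), the clearance receptor Lrp1 (1.13 ± 0.21, adjusted p = 0.000593), and the plasminogen-binding pair Anxa2 (0.64 ± 0.10, adjusted p = 0.000103) and S100a10 (0.99 ± 0.22, adjusted p = 0.00239).

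Tmprss6, the liver protease matriptase-2 that lowers hepcidin, was low in testis and rose in the pooled comparison: 1.21 to 2.62 RPM in the controls with a median of 1.72, and 2.66 to 10.1 RPM in KO with a median of 5.03. Its groups did not overlap, by a small margin (log2 difference 1.17 ± 0.28, adjusted p = 0.00454). Tmprss6 was not called in KO of number 2 (adjusted p = 0.0555) or within title number 2 (adjusted p = 0.0629). Prss12, the synaptic protease neurotrypsin, measured 0.360 to 1.42 RPM in the controls and 0.443 to 4.40 RPM in KO. KO replicates 3 and 4 lay at control level, and the call (0.93 ± 0.33, adjusted p = 0.0458) was lost in 21 of 26 alternatives, among them the omission of any of 9 single libraries (adjusted p up to 0.107). Corin, the protease that activates the heart's natriuretic peptide, measured 20.1 to 44.8 RPM in the controls and 12.8 to 42.2 RPM in KO (adjusted p = 0.746). Prss56, which is known from the growth of the eye, measured 25.9 to 43.5 RPM in the controls and 17.8 to 49.9 RPM in KO (adjusted p = 0.146), and was called lower in KO of number 1 (log2 difference -0.70 ± 0.23, adjusted p = 0.0305). That call was lost without any 1 of WT replicates 1 and 3, Het replicate 4 and KO replicates 2 and 3 (adjusted p up to 0.132). Of 4 tested inhibitors and substrates of membrane proteases, Spint2 rose by 0.29 ± 0.09 on the log2 scale (adjusted p = 0.0167), and Spint1, Hgf and Epcam were not called.

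**Figure D3:**
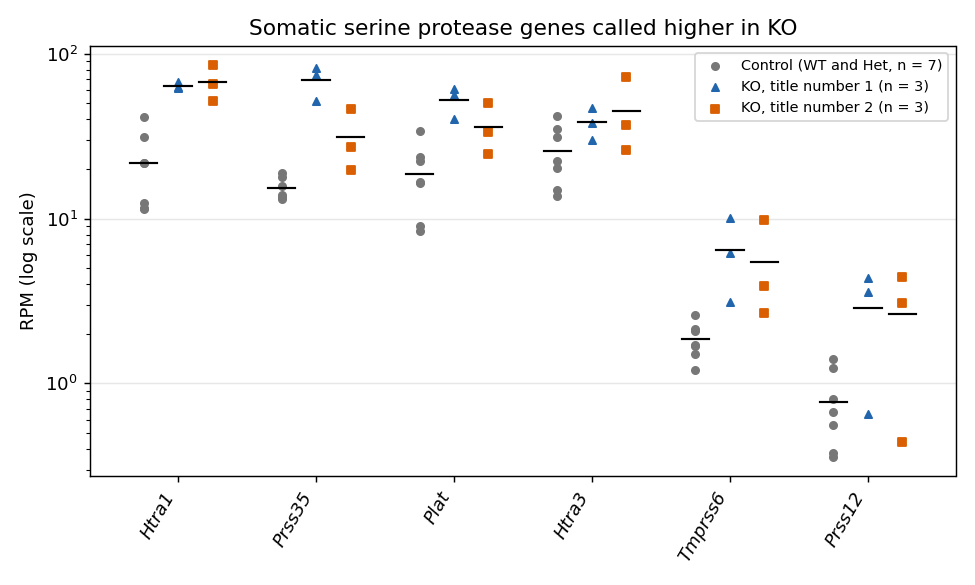
RPM (log scale) of the 6 somatic members called higher in KO, by library, with a bar at each group mean. Htra1, Prss35 and Tmprss6 have all 6 KO points above the 7 control points, Prss35 is highest in KO of number 1, and Htra3, Plat and Prss12 overlap.

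Groups that do not overlap were found for 9 of the 52 members, 3 with KO above (Htra1, Prss35, Tmprss6) and 6 with KO below (Prss39, Prss40, Prss58, Prss55, Klk1b7-ps, Klk1b8), where all tested genes show this in 7.96% (5.06% above and 2.89% below). Beside the somatic rises stand rises of the marker sums of several somatic cell types. The Leydig sum was 2380 to 4279 RPM in the controls and 5732 to 10031 RPM in KO, the Sertoli sum 1316 to 2227 and 2380 to 3758 RPM, and the macrophage sum 86.7 to 132 and 145 to 344 RPM, each without overlap. The spermatogonia sum, of germ cells, was also higher without overlap, at 83.6 to 124 RPM in the controls and 139 to 225 RPM in KO. Of its 7 markers 2 were called higher, Kit and Stra8, and 5 were not called. Gfra1, Id4 and Sall4 had log2 differences of -0.37, -0.04 and -0.08. The endothelial sum was 7.16 to 33.3 RPM in the controls and 29.0 to 48.7 RPM in KO, with overlap, and 2 of its 6 markers were called higher. The peritubular myoid sum was 307 to 367 and 234 to 323 RPM, also with overlap. Of its 6 markers Actg2 was called lower (adjusted p = 1.23e-05) and Myh11 higher (adjusted p = 0.0162), and the median log2 difference was 0.48. Within KO, the macrophage sum was 248 to 344 RPM for number 1 and 145 to 192 RPM for number 2. The Leydig sum was 7063 to 10031 and 5732 to 6114 RPM, and the Sertoli sum 3443 to 3758 and 2380 to 3143 RPM. Prss35 also stood in this order, as did sums of partner lists such as the plasminogen activator system (701 to 773 and 438 to 518 RPM). The part of these cell types in the protease levels was not tested. Markers of epididymal epithelium, tissue that could be taken along with a testis, averaged under 1 RPM for 8 of 10 genes, with Lcn5, Lcn8 and Bsph2 at 0 in every library, and summed to 123 to 193 RPM in the controls and 101 to 131 RPM in KO, almost all of it from Cst8 and Wfdc10. Of 7 markers of mast cells, which also make trypsin-like proteases, 4 were at 0 in every library (Mcpt4, Tpsb2, Cma1 and Ms4a2). The sum of that list was 34.1 to 65.3 RPM in the controls and 83.8 to 142 RPM in KO, nearly all of it from Kit, a receptor that germ and Leydig cells also make, which rose (log2 difference 1.21 ± 0.16, adjusted p = 2.29e-05).

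The kallikreins form a cluster on chromosome 7, of which 15 members from Klk1b7-ps to Klk1 lie within 285 kb and 14 were tested. Klk1 is the kinin-forming tissue kallikrein, and the Klk1b genes are copies of it that are peculiar to rodents. Klk1b21, Klk1b24 and Klk1b27 have been described in Leydig cells of the mouse testis. In KO against control 0 kallikreins rose, 0 by limma-voom as well, and 2 fell. Klk1b8 (chr7:43950664-43954941, plus strand, mm10) measured 83.0, 49.6 and 44.7 RPM in WT, 46.8, 68.7, 42.1 and 41.4 RPM in Het, 23.4, 27.5 and 15.9 RPM in KO of number 1 and 35.5, 17.9 and 16.9 RPM in KO of number 2. All KO libraries lay below all controls (log2 difference -1.21 ± 0.19, adjusted p = 0.000126). Its neighbour Klk1b7-ps (chr7:43945012-43945927, plus strand) measured 7.85 to 13.2 RPM in the controls with a median of 10.6, and 3.43 to 6.59 RPM in KO with a median of 4.87, again without overlap (-0.95 ± 0.20, adjusted p = 0.00154). Both genes fell in KO of either number.

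Klk1b27, Klk1b21 and Klk1b24, the kallikreins nearest to Klk1b8 in level, spread widely between libraries. Klk1b27 measured 71.8, 19.2 and 36.0 RPM in WT, 3.41, 101, 27.9 and 22.7 RPM in Het, 12.9, 29.8 and 18.8 RPM in KO of number 1 and 241, 59.4 and 74.4 RPM in KO of number 2. Klk1b21 measured 45.4, 12.7 and 34.9 RPM in WT, 1.77, 64.3, 23.5 and 19.0 RPM in Het, 11.3, 20.5 and 21.4 RPM in KO of number 1 and 157, 68.8 and 85.8 RPM in KO of number 2. Klk1b24 measured 34.2, 17.4 and 21.4 RPM in WT, 2.02, 63.6, 21.6 and 19.9 RPM in Het, 14.7, 26.6 and 15.9 RPM in KO of number 1 and 144, 62.1 and 79.3 RPM in KO of number 2. In all 3, Het replicate 1 was lowest, KO replicate 4 was highest, and the KO libraries of number 2 stood above those of number 1. The pooled comparison passed for none of them (log2 differences 0.67 ± 0.61, 0.98 ± 0.60 and 1.06 ± 0.55, adjusted p = 0.454, 0.247 and 0.170 for Klk1b27, Klk1b21 and Klk1b24).

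Klk1b16 and Klk1b22, which lie between them and were lower, stood in the same order. Klk1b16 measured 7.69, 2.55 and 4.90 RPM in WT, 0.631, 13.5, 4.68 and 5.05 RPM in Het, 1.54, 1.49 and 1.31 RPM in KO of number 1 and 22.8, 9.72 and 14.9 RPM in KO of number 2. Klk1b22 measured 9.11, 0 and 6.72 RPM in WT, 0, 6.83, 6.88 and 0.337 RPM in Het, 0.140, 0.373 and 0.654 RPM in KO of number 1 and 33.9, 15.8 and 4.48 RPM in KO of number 2. The 2 values of 0 leave room for up to 0.402 RPM in WT replicate 2 and 0.379 RPM in Het replicate 1. These 5 genes (Klk1b27, Klk1b21, Klk1b22, Klk1b16 and Klk1b24) follow each other along the cluster and were singled out after their values were seen. In 5 of 5 every KO library of number 2 lay above every KO library of number 1, KO replicate 4 was the highest of the 13 libraries, and Het replicate 1 was the lowest or tied for it. How many of all tested genes stand in this order was not counted, so the 5 of 5 only describes the chosen genes.

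**Figure D4:**
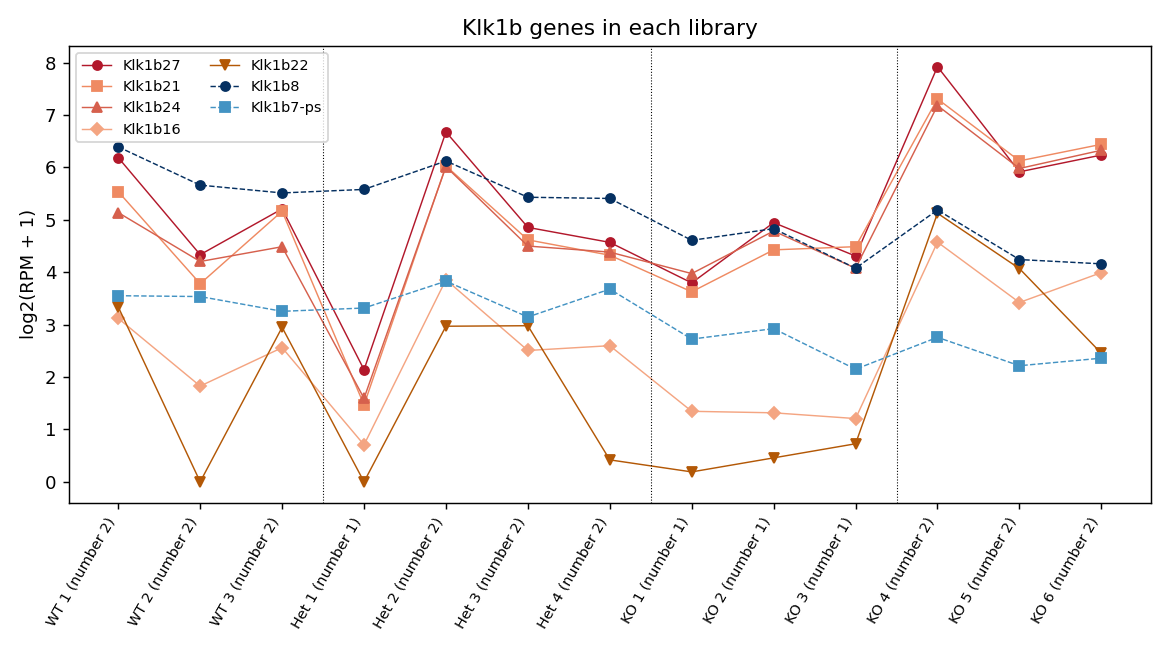
log2(RPM + 1) of 7 Klk1b genes in the 13 libraries, with the title number of each library in brackets and dotted lines between groups. The 5 genes drawn with solid lines dip in Het replicate 1 and peak in KO replicate 4, whereas Klk1b8 and Klk1b7-ps (dashed) are lower in all KO libraries than in all controls.

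Compared with control, KO of number 2 had 6 members higher and 10 lower, where all tested genes had 7.8% higher and 4.64% lower (12.4% in all). KO of number 1 had 5 higher and 6 lower, where all tested genes had 17% higher and 5.74% lower (22.7% in all). Both comparisons use the same controls. Klk1b21 (log2 difference 2.21 ± 0.60, adjusted p = 0.0192), Klk1b24 (2.16 ± 0.55, adjusted p = 0.0123) and Klk1b16 (1.54 ± 0.45, adjusted p = 0.0283) rose in number 2, and Klk1b22 (2.08 ± 0.70, adjusted p = 0.0567) and Klk1b27 (1.84 ± 0.62, adjusted p = 0.0562) missed the threshold. In number 1 the same 5 genes had log2 differences of -1.35 to -0.05 and none was called. Without KO replicate 4 no call of number 2 was left among the 5 (adjusted p = 0.0820 to 0.288), and without KO replicate 6 the calls of Klk1b21 (adjusted p = 0.0548) and Klk1b16 (adjusted p = 0.0856) were lost.

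The test of the difference between the KO numbers called 29 of all tested genes (0.179%, of which 0.0801% higher and 0.0986% lower in number 2) and 1 member, Klk1b16, which was higher in number 2 by 2.71 ± 0.53 on the log2 scale (adjusted p = 0.0369). All 5 kallikreins, chosen after their values were seen, had an unadjusted p under 0.05 in that test, as had 1999 of all 16235 tested genes. Their log2 differences were 2.22 to 3.43, with adjusted p = 0.0369 to 0.187. The call of Klk1b16 was lost without any 1 of the 6 KO libraries (adjusted p = 0.0548 to 0.131) and with limma-voom (adjusted p = 0.191). Without Het replicate 1 all 5 were called (adjusted p = 0.00292 to 0.0408), and the standard error of Klk1b16 was 0.42 in place of 0.53.

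Within title number 2 alone (3 KO, 3 WT and 3 Het), Klk1b21 was higher in KO by 1.72 ± 0.37 (adjusted p = 0.00730), Klk1b24 by 1.71 ± 0.32 (adjusted p = 0.00318) and Klk1b16 by 1.25 ± 0.37 (adjusted p = 0.0399), all on the log2 scale. Within number 1 there is a single control, Het replicate 1, so no test within it is reported. All 3 KO libraries of number 1 lay above it in 5 of 5 genes. These genes were singled out with Het replicate 1 lowest or tied lowest, so this order follows from the choice. For Klk1b22 it rests on 1 read (0.140 RPM) in KO replicate 1, while Het replicate 1, without reads, may hold up to 0.379 RPM. With title number as a covariate, Klk1b27 (1.61 ± 0.38, adjusted p = 0.00480), Klk1b21 (1.99 ± 0.32, adjusted p = 0.000187), Klk1b24 (1.97 ± 0.29, adjusted p = 6.89e-05) and Klk1b16 (1.07 ± 0.31, adjusted p = 0.0182) were called higher in KO, and Klk1b22 was not (1.41 ± 0.57, adjusted p = 0.0799). That fit rests on Het replicate 1 as the sole control of number 1.

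**Figure D5:**
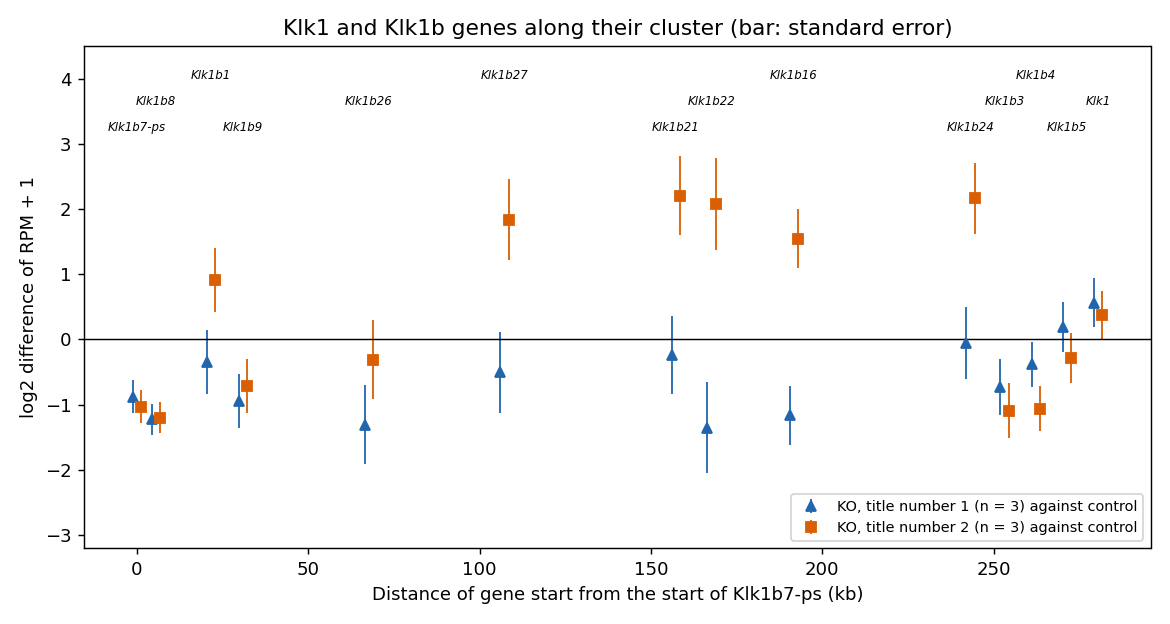
Log2 difference from control (n = 7) of each tested Klk1 and Klk1b gene, with its standard error, against the distance of its start from that of Klk1b7-ps in kb. Blue triangles (KO of number 1, n = 3) and orange squares (number 2, n = 3) coincide near Klk1b7-ps and Klk1b8, and separate at Klk1b27, Klk1b21, Klk1b22, Klk1b16 and Klk1b24.

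The windows before 3 of these genes and before Klk1b8 are shown because the genes are close copies, of which Klk1b8 was lower in KO of both numbers and Klk1b27, Klk1b21 and Klk1b24 were highest in KO of number 2. They are the 250 bases before the RefSeq start (GRCm38.p6, 5′ to 3′ on the gene's strand). Capitals mark the motif TTTAAA, searched as these letters on both strands, and a block of 12 bases, CATATTTTTGTC.
Klk1b8, chr7:43950416-43950665, plus strand: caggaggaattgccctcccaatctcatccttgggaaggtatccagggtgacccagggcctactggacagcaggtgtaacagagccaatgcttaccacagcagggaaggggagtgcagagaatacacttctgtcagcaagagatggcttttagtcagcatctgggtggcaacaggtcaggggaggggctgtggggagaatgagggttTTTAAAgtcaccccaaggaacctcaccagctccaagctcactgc
Klk1b27, chr7:44052040-44052289, plus strand: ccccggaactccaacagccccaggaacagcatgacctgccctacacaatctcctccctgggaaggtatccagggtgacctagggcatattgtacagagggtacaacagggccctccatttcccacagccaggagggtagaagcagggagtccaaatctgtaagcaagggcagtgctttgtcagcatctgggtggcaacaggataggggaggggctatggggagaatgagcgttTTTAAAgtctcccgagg
Klk1b21, chr7:44102042-44102291, plus strand: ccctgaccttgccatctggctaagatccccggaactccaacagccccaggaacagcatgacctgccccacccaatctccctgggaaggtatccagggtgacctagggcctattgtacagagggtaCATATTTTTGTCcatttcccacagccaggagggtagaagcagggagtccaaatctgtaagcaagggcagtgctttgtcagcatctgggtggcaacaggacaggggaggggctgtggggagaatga
Klk1b24, chr7:44187986-44188235, plus strand: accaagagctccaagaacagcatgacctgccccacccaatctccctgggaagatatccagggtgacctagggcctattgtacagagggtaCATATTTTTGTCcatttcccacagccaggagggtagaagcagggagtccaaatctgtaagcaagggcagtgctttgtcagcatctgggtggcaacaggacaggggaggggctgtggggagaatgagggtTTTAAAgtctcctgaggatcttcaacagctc
The windows of Klk1b21 and Klk1b24 were 97.7% identical over 215 aligned bases, those of Klk1b27 and Klk1b21 94.6% over 224, and those of Klk1b8 and the other 3 between 82.0% and 82.4%. TTTAAA began 44 bases before the start in Klk1b8, 31 in Klk1b24 and 17 in Klk1b27, and was not in the window of Klk1b21. The block began 125 bases before the start in Klk1b21 and 160 in Klk1b24. The window of Klk1b21 therefore ends before the place that aligns with TTTAAA in Klk1b24, and the bases beyond it were not searched. Of all 32817 windows 12.1% hold TTTAAA, as do those of 17 of the 71 members with an entry. The block was chosen by comparing these windows and stands only in those of Klk1b21 and Klk1b24 among all 32817. A match is a description of the letters.

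The transcripts of these genes are also alike, which bears on how reads were assigned. Of the 50-base words of the transcript, 33.9% occur in another transcript for Klk1b24, 29.1% for Klk1b21, 22.6% for Klk1b8, 14.3% for Klk1b27, 13.3% for Klk1b22, 10.1% for Klk1b16 and 1.87% for Klk1b7-ps. How shared reads were assigned is not stated, so the levels of single Klk1b genes, and how far they vary apart, are uncertain.

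The smaller kallikreins were low and none was called in KO against control. Klk1 itself measured 4.45 ± 0.823 RPM in the controls and 7.69 ± 5.42 RPM in KO (adjusted p = 0.265). Klk1b3, the gamma subunit of the nerve growth factor complex, measured 4.63 ± 3.59 and 1.62 ± 0.637 RPM (adjusted p = 0.0574), Klk1b9 4.06 ± 2.36 and 1.91 ± 1.29 RPM (adjusted p = 0.0716), and Klk1b4 1.58 ± 0.889 and 0.528 ± 0.420 RPM (adjusted p = 0.0763). All 6 KO libraries lay below the control mean in each of these 3 genes. Klk1b4 was called lower in KO of number 2 (log2 difference -1.06 ± 0.35, adjusted p = 0.0495), a call that was lost without any 1 of 11 libraries, all but Het replicates 3 and 4 (adjusted p up to 0.156). Klk1b26, Klk1b5 and Klk1b1 stood at 3.28, 2.48 and 1.29 RPM on average in the controls and overlapped in KO.

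Single libraries stood out across the whole cluster. Among the 3 WT libraries, replicate 1 held the highest value of 13 of 14 tested kallikreins, and among the Het libraries replicate 2 of 10 of 14. Among the KO libraries it was replicate 2 for 9 of 14 in number 1 and replicate 4 for 12 of 14 in number 2. These genes share sequence and are not independent of each other. WT replicate 1 and Het replicate 2 were also the libraries high in Prss45 and in markers of elongating spermatids (15682 and 14808 RPM). Within their groups, Het replicate 2 (3297 RPM), KO replicate 4 (6114 RPM) and KO replicate 2 (10031 RPM) also had the highest Leydig marker sum. WT replicate 1 had the lowest of the WT libraries (3080 RPM). Over all 13 libraries the Leydig sum was highest in KO replicate 2, and not in KO replicate 4. A link between these sums and the kallikreins was not tested. Het replicate 1, lowest in the 5 kallikreins, also had the lowest Leydig sum (2380 RPM). Over the kallikrein-kinin list, 2 of 5 tested partners rose, the serpin Serpina3n (1.75 ± 0.33, adjusted p = 0.000676) and the peptidase Mme (1.48 ± 0.36, adjusted p = 0.00533), while Kng2 and Klkb1 were not called. Of all tested genes 18.4% were called higher.

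None of the 9 tested genes placed on neither side was called in KO against control, 0 by limma-voom as well, and 1 had an unadjusted p under 0.05. That gene, Prss57, rose in KO of number 1 from 7.51 ± 1.73 RPM in the controls to 19.0 ± 1.72 RPM (log2 difference 1.26 ± 0.25, adjusted p = 0.00116) and measured 8.29 ± 3.03 RPM in number 2. Its exons share 1157 bases with those of Fstl3, so its reads cannot be told apart from those of that gene without strand. Prss47 measured 18.0 to 26.8 RPM in the controls and 14.5 to 25.5 RPM in KO, and Prss48 15.0 ± 3.03 and 12.6 ± 2.73 RPM. Prss38, Prss53, Prss36, Tmprss9 and Tmprss5 averaged between 0.489 and 8.01 RPM in the controls and overlapped in KO.

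The comparison of Het with WT shows whether the pooled controls differ in these genes. With limma 0 of 52 members were called, as were 0 of all tested genes (0%), and limma-voom called 0 as well. At an unadjusted p under 0.05 stood 2 members and 957 genes in all. The 2 were Htra1, at 31.5 ± 9.96 RPM in WT and 14.3 ± 4.93 RPM in Het (log2 difference -1.09 ± 0.23, adjusted p = 0.327), and Plat, at 26.8 ± 6.40 and 12.7 ± 4.53 RPM (-1.06 ± 0.29, adjusted p = 0.601). Each WT library lay above each Het library in Plat, and in Htra1 WT replicate 1 and Het replicate 2 both stood at 21.7 RPM. Markers of somatic cells also differed: 5 of 9 Leydig, 3 of 10 Sertoli and 3 of 6 endothelial markers had an unadjusted p under 0.05. All of these stood lower in Het except the Leydig marker Hsd3b6, which stood higher (log2 difference 1.04). The median log2 differences of the lists were -0.30, -0.29 and -0.96, and the part of these cells in the 2 genes was not tested. Against WT alone, KO was still higher in Htra1 and was not called for Plat (adjusted p = 0.107).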

How the data were processed

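Total RNA of whole testis from 13 mice was turned into cDNA by Smart-seq2 from about 2 ng with 11 PCR cycles, per the labels' protocols. The deposited table gives log2 RPM (reads of a gene per M reads of the library) for each gene and library, as the authors made it, with its mm10 coordinates. The submitters' processing notes name Trim Galore 0.6.6, FastQC 0.11.8 and mm10. The aligner, the counter and its strand setting were not given in any source used here. A gene without reads is set in the table at the value of 0.9 read. It was put back to 0, and values were returned to RPM. Whole reads were recovered within 0.01 for at least 99.964% of the values in each library, and the recovered reads in listed genes came to 4.22 to 10.1 M per library.

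The 16235 of 25965 genes that averaged 1 RPM or more were tested on log2(RPM + 1) with limma 3.58.1 (trend and moderated variance, R 4.3.3), with Benjamini-Hochberg adjustment and a threshold of 0.05. A difference on this scale understates the change of genes near 1 RPM. One fit held control, KO of number 1 and KO of number 2, one held control and KO, and one held WT, Het and KO. Two-sided exact permutation was used for Wfdc15a alone. Other steps ran in Python 3.11.15 with scipy 1.17.1, pandas 2.3.3 and matplotlib 3.10.9. The scripts' tests were tested on simulated data. The alternatives were other pseudocounts, filters and scalings, limma-voom on recovered reads, the replicate block, other control and KO groups, and omission of each library.

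The members and lists were chosen with earlier results of these data known. Named with their values are members called in KO against control, KO of number 2 against number 1 or Het against WT, and tested members averaging at least 20 RPM. Other tested members are given by means or ranges, and partner lists by counts and up to 4 genes of lowest p, with Acr named in addition. Promoter windows come from RefSeq (GRCm38.p6), with entries for 71 of the 93 members.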

Additional observations from a re-analysis of the deposited data

Results flagged for a closer look

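Of 68 sets of values (each named member in the 7 controls and in the 6 KO libraries, on log2(RPM + 1)), 6 had a library standing apart from the others by Dixon's ratio, where chance gives about 1 in 20. Of these, 4 were KO replicate 6. It was low in Prss40, at 35.7 RPM against 53.7 to 61.8 RPM in the other KO libraries, and in Prss52, at 51.4 RPM against 77.6 to 89.0 RPM. The same library was high in Prss42, at 81.9 RPM against 49.2 to 58.4 RPM, and in Prss44, at 59.3 RPM against 31.7 to 39.6 RPM. Among the controls, Het replicate 1 was low in Klk1b24, at 2.02 RPM against 17.4 to 63.6 RPM, and Het replicate 2 was low in Prss52, at 83.0 RPM against 101 to 108 RPM. Between the KO libraries of the 2 title numbers, Klk1b16 differed by 2.71 on the log2 scale (limma, adjusted p = 0.0369), higher in all 3 libraries of number 2.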

How the results depend on the processing

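Htra1, Prss35, Klk1b8, Klk1b7-ps, Prss39 and Prss58 were called in the same direction in all 27 alternatives of KO against control. With WT alone as control, 3 members were higher (3 somatic) and 4 lower (2 germ-cell), where calls over all genes also fell, to 5.13% higher and 2.94% lower. With KO of number 1 alone 3 germ-cell genes were lower. Quantile normalization gave 15 members lower, 7 of them somatic, and 13 lower in KO of number 1, where all genes had 9.44% and 9.68% lower, and median-of-ratios scaling gave 5 somatic members lower. Without members whose exons overlap another gene, an alternative chosen after seeing the data, 6 were higher and 8 lower. For KO of number 2 against control, 2 members were higher with no filter, where all genes had 4.17% higher. Between the KO numbers, 0 were higher with a pseudocount of 0.5, with no filter or with limma-voom, and 1 was lower with a pseudocount of 2 or quantile normalization.

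Replicate numbers did not pair the samples: 1 of 10 same-numbered pairs had a correlation over 0.1 (range -0.0835 to 0.126). With the replicate block 6 members were higher and 7 lower, of which 4 were germ-cell genes. The log2 difference became -0.52 for Klk1b16, -0.32 for Klk1b22, -0.10 for Prss44 and -0.11 for Prss21. Numbers 5 and 6 occur only in KO, so KO replicates 5 and 6 add nothing to the difference in that fit. Of KO of title number 2 only replicate 4 then counts. An effect of pairing on these values cannot be told apart from the loss of those libraries. The block was not fitted for the title-number comparisons. The KO libraries of number 1 and those of number 2 share no replicate number with each other.

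The genes below passed neither in the pooled comparison nor where their sign changed, but Klk1b27, Klk1b21, Klk1b24 and Klk1b16 were called higher with title number as covariate. With KO of number 1 alone the log2 difference was -0.50 for Klk1b27, -0.24 for Klk1b21, -1.16 for Klk1b16, -0.053 for Klk1b24, -1.35 for Klk1b22, -0.0061 for Corin, -0.11 for Prss44, -0.088 for Tmprss12 and -0.16 for Prss21. Median-of-ratios scaling gave -0.02 for Corin, -0.092 for Prss44, -0.025 for Prss46, -0.0042 for Tmprss12 and -0.13 for Prss21, and quantile normalization gave -0.11 for Corin, -0.041 for Klk1b16, -0.14 for Prss44, -0.067 for Tmprss12 and -0.074 for Prss21. With limma-voom Klk1b16 stood at -0.0094. With WT alone Corin stood at -0.0051 and Prss21 at -0.047, and with Het alone Prss42 at 0.095. Within title number 2, Prss42 stood at 0.14 and Prss43 at 0.044, and with KO of number 2 alone at 0.10 and 0.0022. The cause was not tested.

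Leaving out 1 library at a time gave log2 differences of -0.20 to 0.48 for Klk1b16, -0.23 to 0.76 for Klk1b22, -0.068 to 0.094 for Prss21, -0.12 to 0.025 for Prss42, -0.060 to 0.12 for Prss44 and -0.86 to -0.46 for Wfdc15a (exact permutation p = 0.00253 to 0.0821). In KO of number 1 the range was -0.73 to 0.040 for Klk1b21 and -0.51 to 0.23 for Klk1b24, and 2 to 7 members were lower. In KO of number 2, 6 to 10 members were lower, and between the KO numbers 0 to 5 were higher and 0 to 1 lower. Members averaging under 1 RPM rest on few reads and were not tested.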
